A study of Mus musculus with 24 samples.

Results

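Ovariectomy in the absence of AngII was examined in female mice of old age, in the left ventricle, as the difference between 4 Ovx libraries (numbered 43, 44, 45 and 53) and 4 control (Ctrl) libraries (37, 38, 39 and 51). These are 8 of the 24 libraries of the series, and were taken by their group labels. All mice were C57BL6/J females of 24 months kept without AngII, and the Ovx mice had lost their ovaries at 12 months of age. Each library was prepared from RNA of the free wall pooled from 2 mice, so that the spread between libraries is that between pools. The genes examined were the 13813 of 24958 in the table that had a mean normalized value of at least 10 over the 8 libraries. Another 11145 genes were below this limit, of which 6770 were listed at 0 in all 8 libraries. Females of the same age given a continuous AngII infusion (4 Ctrl + AngII and 4 Ovx + AngII libraries) and males (4 controls and 4 gonadectomized at 12 months) served for comparison.

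The ovaries are the main source of circulating estradiol and progesterone, and their removal in rodents models surgical menopause. Mice do not go through a human menopause, although their cycles become irregular with age. No hormone level was analysed here. Estradiol acts through the nuclear receptors encoded by Esr1 and Esr2 and the membrane receptor encoded by Gper1, which are present in cardiac myocytes, fibroblasts and vessel cells. In the heart, estrogens are known to restrain fibroblast collagen synthesis and myocyte hypertrophy. Ovarian hormones also act on the adrenal axis and on body fat, and steroids of both sources reach the ventricle through the blood.

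The deposited values were already normalized, and the number of reads behind each library is not given by them. A normalized value below is the deposited one after a further division by a factor per library (the median ratio to the mean of all libraries), since the deposited scale differed between the groups by a constant. A value that recurred among the lowest genes of a library placed the depths of the 8 libraries between 0.609 (Ovx library 43) and 1.53 (Ctrl library 38) relative to the series. Between libraries of the same group the correlation of log2 values over the genes tested ran from 0.968 to 0.986. Libraries 39 and 43 stood apart: Ctrl library 39 was the farthest from its group's median for 4503 genes and Ovx library 43 for 5266. The label of the tissue was borne out by its markers, since the 12 cardiomyocyte markers summed to between 2009867 and 2436321 per library, and of 10 atrial markers 5 were below the limit of 10, among them Myl7, Sln and Bmp10, with a sum over the list of 2984 to 6015 per library. The p-values below measure the spread between these pooled libraries. Because these are bulk samples, fewer cells of a type and less RNA per cell cannot be told apart for any gene below.

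No gene changed by the study's double threshold, a difference of 2-fold or more with an adjusted p not above 0.05 (limma on log2(value + 1), fitted over the 16 female libraries, 0% of the genes tested). At an unadjusted p under 0.05 there were 1705 genes, or 12.3%, with 855 higher in Ovx (6.19%) and 850 lower (6.15%). The adjusted p alone was passed by 15 genes (0.109%), of which 7 rose (0.0507%) and 8 fell (0.0579%). Their differences lay between 0.27 and 0.98 on the log2 scale, that is rises of 20.9% to 65.4% and falls of 31.6% to 49.8% of the Ctrl mean. In each of the 15 genes the 4 Ovx libraries lay wholly on one side of the 4 Ctrl libraries, which was so for 6.02% of all genes tested, 3.45% above and 2.57% below. A lack of overlap fixes the exact permutation p over the 8 libraries at 0.0286, two-sided, the smallest that its 70 labelings allow, so that this p adds nothing for these genes.

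**Figure D1:**
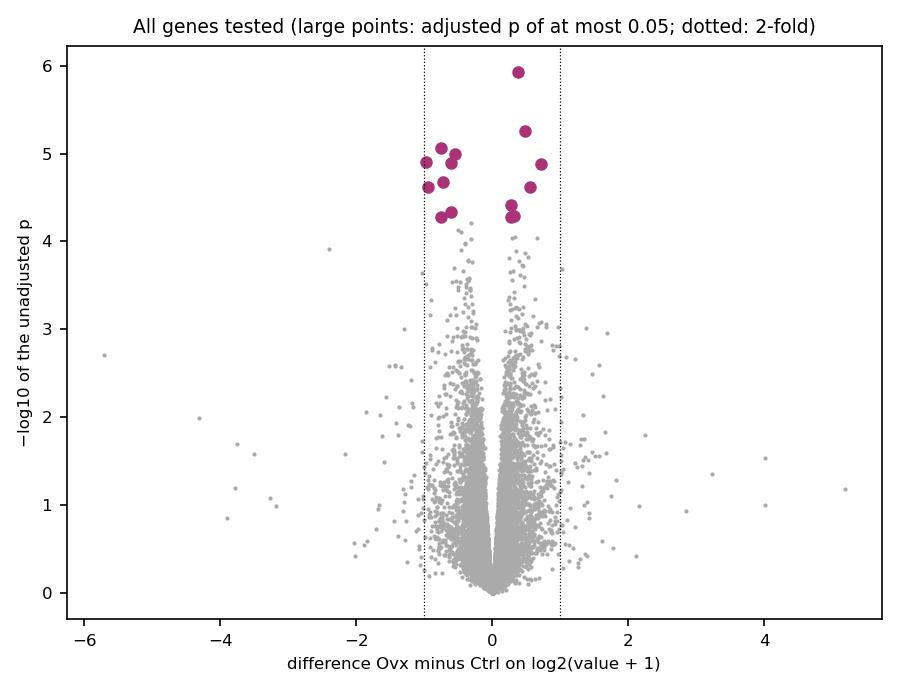
Each point is 1 of the 13813 genes tested, with the difference Ovx minus Ctrl on log2(value + 1) on the x axis and −log10 of the unadjusted p (limma) on the y axis. The 15 large points are the genes past the adjusted p, and all of them lie between the dotted lines that mark a 2-fold difference.

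The count of 15 depended on single libraries. Without Ovx library 43 it was 356 (59 higher, 297 lower), and without Ctrl library 39 it was 114 (59 higher, 55 lower). Without Ctrl libraries 37 or 51 or Ovx libraries 44 or 45, it was 0. Leaving out 39 and 43 together, an alternative chosen after seeing the data, gave 493 genes (127 higher, 366 lower) and 23 past both thresholds, and all of the 15 passed. On the values exactly as deposited, in which the median difference over all genes was -0.088 on the log2 scale, 193 genes passed the adjusted p, 6 higher and 187 lower, against 7 and 8 after rescaling, and at an unadjusted p under 0.05 there were 322 higher and 2417 lower. The direction of each of the 15 genes was the same there. Of the 10 gene lists recomputed on that scale, the medians of lipogenesis and of sarcomere genes changed sign. With only the 8 libraries in the fit 0 genes passed the adjusted p, and with all 24 libraries 3 did (Sulf2, Srebf1 and Fam117a). The calls of all 15 thus rest on the libraries from which the spread was taken. The differences themselves do not use that spread, so their directions could not change with it.

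The gene with the smallest p was Sulf2 (chr2:166073899-166155683, mm10), which encodes an extracellular sulfatase that trims heparan sulfate chains and so alters how growth factors bind to the cell surface. Its normalized value was 2414, 2621, 2340.3 and 2208 in Ctrl libraries 37, 38, 39 and 51 and 3031, 3177, 3130.3 and 3159 in Ovx libraries 43, 44, 45 and 53, the order kept for every gene below. The 4 Ovx libraries lay closer together than the Ctrl ones and all above them. Sulf2 rose from 2396 ± 173 to 3124 ± 64.9 (SD, n = 4), a log2 difference of 0.39 ± 0.055 (SE, adjusted p = 0.0161, limma).

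Srebf1 (chr11:60199084-60224186), the transcription factor that switches on fatty acid and cholesterol synthesis, was at 975, 1028, 1077 and 924 in Ctrl and at 1312, 1505, 1484 and 1289 in Ovx. Its log2 difference was 0.48 ± 0.076 (adjusted p = 0.0262), and the lowest Ovx library was well above the highest Ctrl library. Hk1 (chr10:62268855-62379920), a hexokinase that traps glucose in the cell, rose by less, from 6333, 6214, 6224 and 5657 to 7233, 7689, 7386 and 7339. The difference was 0.28 ± 0.052 (adjusted p = 0.0482), with Ctrl library 51 the lowest of the 8. Sema3b (chr9:107597674-107609241), a secreted semaphorin that guides axons and restrains vessel growth, was at 1124, 1035, 1017 and 1017 in Ctrl and 1288, 1373, 1232 and 1352 in Ovx, a difference of 0.32 ± 0.062 (adjusted p = 0.0491).

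The largest rise was that of Fam117a (chr11:95337018-95381872), at 108, 134, 121 and 112 in Ctrl and 212, 201, 203 and 168 in Ovx, with a log2 difference of 0.72 ± 0.12 (adjusted p = 0.0262). Rabep2 (chr7:126428423-126445907), an effector of endosomal Rab proteins, was at 192, 224, 190.2 and 209 and 308, 308, 292 and 295, and rose by 0.56 ± 0.10 on the log2 scale (adjusted p = 0.0335). The spread within Ovx was small in this gene, and its lowest library (292) was far above the highest Ctrl library (224). The gene 2310022B05Rik (chr8:124635756-124663369) was at 1779.6, 1781, 1867 and 1812 and 2094, 2083, 2382 and 2195, a difference of 0.27 ± 0.052 (adjusted p = 0.0491).

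Among the 8 genes that fell, Zbtb16 (chr9:48651797-48836225) had the largest difference. It encodes a zinc finger transcription factor that is a well known target of the glucocorticoid receptor. Its value was 5898, 3988, 3420.4 and 5789 in Ctrl and 2338, 1820.3, 2414 and 3009 in Ovx, and it fell by 0.98 ± 0.17 on the log2 scale (adjusted p = 0.0262). Ctrl libraries 37 and 51 were far above 38 and 39, and the Ovx libraries were all below these too.

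Map3k6 (chr4:133237979-133252929), a kinase at the top of stress-activated MAP kinase cascades, was at 534, 517, 403 and 668 in Ctrl and at 284, 228, 235 and 350.4 in Ovx (difference -0.95 ± 0.17, adjusted p = 0.0335). Ddit4 (chr10:59949675-59951770) encodes an inhibitor of the growth-promoting kinase complex mTORC1 and is induced by glucocorticoids, low oxygen and energy stress. It was at 754, 763, 617 and 967 in Ctrl and 519, 409, 508 and 396 in Ovx, and fell by 0.75 ± 0.14 (adjusted p = 0.0491). In both genes Ctrl library 51 was the highest and Ctrl library 39 the lowest of its group.

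Cebpb (chr2:167688915-167690432), a bZIP transcription factor of metabolic and acute-phase genes, was at 619.9, 632, 533 and 599.7 in Ctrl and 386, 340.2, 300.4 and 386 in Ovx. The spread was similar in the 2 groups and the difference was -0.76 ± 0.13 (adjusted p = 0.0262). Noct (chr3:51224447-51251654), whose product nocturnin is a rhythmically expressed phosphatase of NADP(H), was at 1687, 1256, 1079.6 and 1657 and 896, 787, 759.7 and 959 (difference -0.72 ± 0.13, adjusted p = 0.0335). For Pde7a (chr3:19223108-19311322), a phosphodiesterase that breaks down cyclic AMP, the values were 1661, 1173, 1359.9 and 1587 and 1048, 908, 915 and 905 (difference -0.60 ± 0.10, adjusted p = 0.0262). The Ovx libraries were nearly equal in Pde7a except for library 43, which was above the others.

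Gpcpd1 (chr2:132529082-132578248), a phosphodiesterase of glycerophosphocholine, was at 7492, 6629, 6011 and 6983 in Ctrl and 4715, 4387, 4055 and 4720.1 in Ovx, with a difference of -0.60 ± 0.11 (adjusted p = 0.0491). Dnaja1 (chr4:40722468-40734965), a co-chaperone that hands unfolded proteins to heat shock proteins, was at 1936, 1692, 1702 and 2297 and 1379, 1261, 1206 and 1368, with a difference of -0.54 ± 0.090 (adjusted p = 0.0262). Within Ctrl, library 39 was the lowest for 6 of these 8 genes, and library 37 or 51 the highest for 7.

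**Figure D2:**
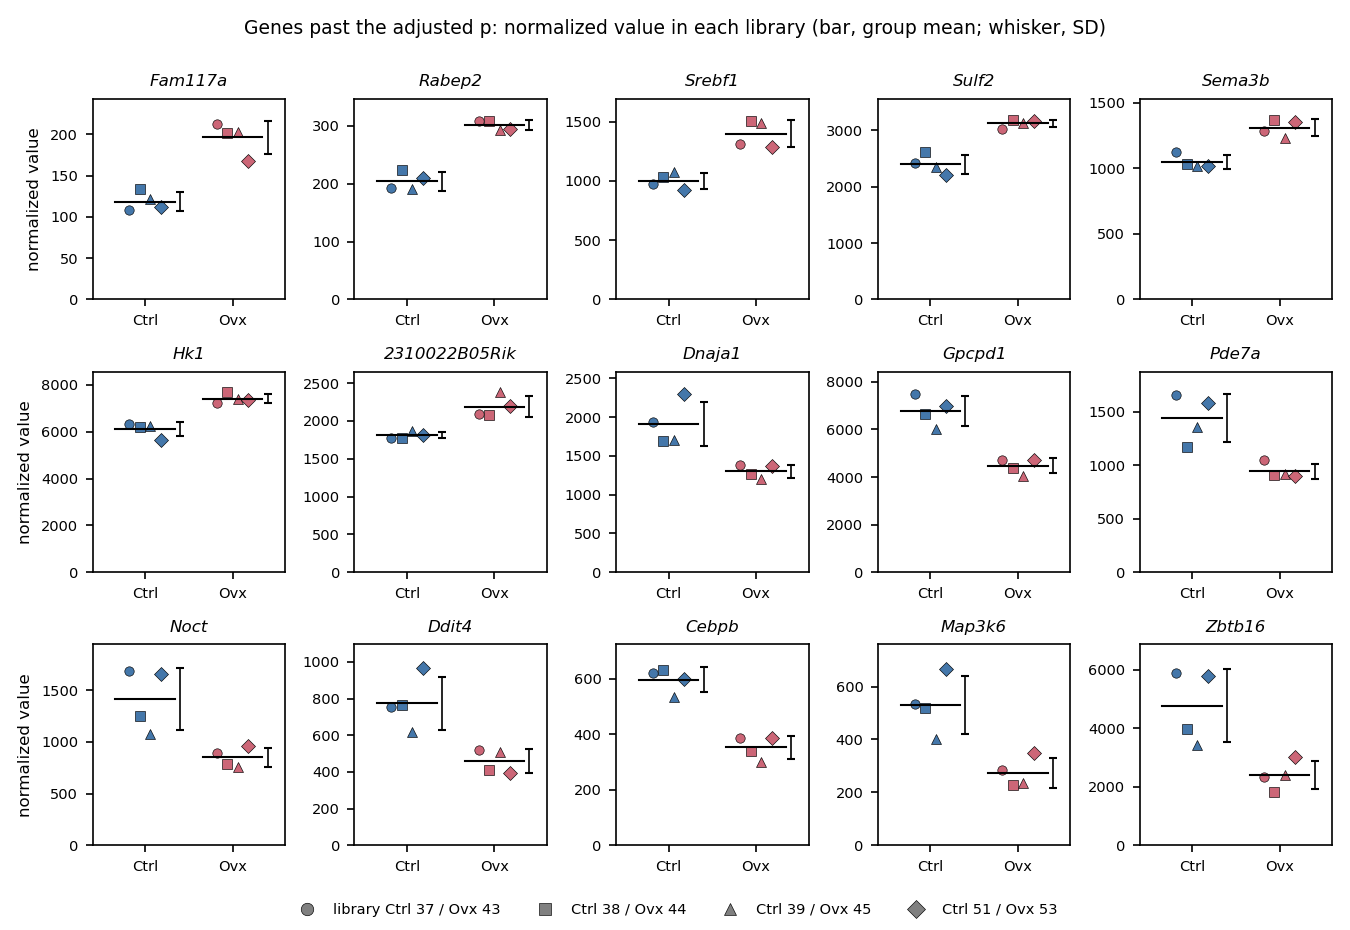
The normalized value (y axis, from 0) of the 15 genes past the adjusted p is plotted for each of the 4 Ctrl and 4 Ovx libraries, with the group mean as a bar and the SD as a whisker; equal symbols in Ctrl and Ovx do not mark pairs. The first 7 panels are the genes that rose and the last 8 those that fell, and in no panel do the groups overlap.

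Promoter windows of 300 bases, from 250 before to 50 after an annotated start, were taken from RefSeq (GRCm38.p6, the same coordinates as mm10), which gave windows for 11 of the 15 genes and for 10821 of the 13813 genes tested. They are shown for 3 genes that fell and for the lipogenic regulator that rose, because these genes stand for the groups described next. Capitals mark, on either strand, the heat shock element GAANNTTC in Dnaja1, the nuclear receptor element AGGTCA in Map3k6, and the CCAAT box in Ddit4 and Srebf1.
Dnaja1 (chr4:40722218-40722517, plus strand): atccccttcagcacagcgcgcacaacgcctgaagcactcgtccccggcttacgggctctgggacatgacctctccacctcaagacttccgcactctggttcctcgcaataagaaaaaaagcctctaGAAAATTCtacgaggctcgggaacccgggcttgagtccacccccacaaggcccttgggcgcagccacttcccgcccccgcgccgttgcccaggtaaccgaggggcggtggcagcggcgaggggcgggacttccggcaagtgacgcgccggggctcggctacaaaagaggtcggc
Ddit4 (chr10:59951721-59952020, minus strand): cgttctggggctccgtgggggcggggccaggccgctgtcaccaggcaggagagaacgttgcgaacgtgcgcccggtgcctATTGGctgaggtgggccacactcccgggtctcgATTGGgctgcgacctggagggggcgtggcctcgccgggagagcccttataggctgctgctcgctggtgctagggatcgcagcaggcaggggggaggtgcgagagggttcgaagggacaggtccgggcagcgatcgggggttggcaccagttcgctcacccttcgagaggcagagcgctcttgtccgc
Map3k6 (chr4:133240568-133240867, plus strand): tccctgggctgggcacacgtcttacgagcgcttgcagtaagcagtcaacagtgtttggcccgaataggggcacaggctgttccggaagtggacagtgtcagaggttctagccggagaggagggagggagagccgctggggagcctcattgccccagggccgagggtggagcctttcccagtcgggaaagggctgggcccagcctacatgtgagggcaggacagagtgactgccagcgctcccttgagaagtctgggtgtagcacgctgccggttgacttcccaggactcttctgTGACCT
Srebf1 (chr11:60222532-60222831, minus strand): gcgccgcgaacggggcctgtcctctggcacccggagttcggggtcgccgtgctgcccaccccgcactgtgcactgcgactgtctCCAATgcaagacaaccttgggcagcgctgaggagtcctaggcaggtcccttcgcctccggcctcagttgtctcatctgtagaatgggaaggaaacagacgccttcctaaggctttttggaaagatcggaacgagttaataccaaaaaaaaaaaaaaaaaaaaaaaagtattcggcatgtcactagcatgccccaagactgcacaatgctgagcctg
Counting a gene once if any of its windows held the letters, GAANNTTC was present in 1 of the 11 genes and in 6.91% of all genes with a window, and AGGTCA in 2 of 11 (Dnaja1 and Map3k6) and 14.8%. The CCAAT box was present in 8 of 11 and in 42.5%. Neither the E-box CACGTG (11.6% of all genes) nor the D-box TTATGTAA (0.656%) was in any of the 11. The glucocorticoid receptor letters AGAACA was in 1 of 11 (Hk1) and in 14.97% of all genes, and the sterol element TCACNCCAC in 0 of 11 and 1.40%. The estrogen element, GGTCANNNTGACC, was in 0 of the 11 and in only 1 of the 10821. The glucocorticoid, sterol and heat shock letters were chosen after values were seen. These are matches of letters in short windows, searched on both strands, and say nothing of what binds there. AGGTCA and GGTCANNNTGACC share letters and can overlap.

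Genes that respond to glucocorticoids were the list with the most members past the adjusted p. The adrenal steroid corticosterone reaches cardiac cells through the glucocorticoid receptor (Nr3c1) and directly induces these genes. Of 22 members, 20 were below 0 and the median difference was -0.25, against -0.0043 for all genes tested. Zbtb16, Map3k6 and Ddit4 fell, 11 members, these included, were lower at an unadjusted p under 0.05 (6.15% of all genes) and 1 was higher. In 7 members the Ovx libraries were all below the Ctrl ones (2.57% of all genes).

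Fkbp5, a co-chaperone that damps the glucocorticoid receptor, was at 1184, 801, 545 and 1110.2 in Ctrl and 453, 408, 365 and 479 in Ovx, a difference of -1.04 ± 0.23 that did not pass (adjusted p = 0.0760). Ctrl libraries 37 and 51 were far above the Ovx range, while 39 was only a little above the highest Ovx library. Tsc22d3, which encodes the glucocorticoid-induced leucine zipper protein and was singled out after its values were seen, was at 2368, 2389, 2149 and 2496 and 1843, 1889.7, 1737 and 2034 (difference -0.33 ± 0.075, adjusted p = 0.0812). Its spread within Ctrl, relative to its level, was far smaller than that of Fkbp5.

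Fam107a, Klf9 and Angptl4 were also singled out after their values were seen. Fam107a, an actin-binding stress gene, was at 338, 336, 254 and 429 in Ctrl and 188, 132, 164 and 243 in Ovx without overlap (-0.91 ± 0.22, adjusted p = 0.107). Klf9, a zinc finger factor, was at 3745, 3367, 2704 and 2919 and 2917, 2374, 1951 and 2347, with Ovx library 43 level with Ctrl library 51 (-0.41 ± 0.11, adjusted p = 0.135). Mt1, a metal-binding metallothionein gene, was at 3932, 2971, 2269.6 and 4143 and 2204, 2322, 1682 and 2344, and here 39 lay among the Ovx libraries (-0.61 ± 0.17, adjusted p = 0.135). Angptl4, an inhibitor of lipoprotein lipase, was the member in the opposite direction, at 85.2, 129, 169.8 and 96.2 in Ctrl and 314, 360.4, 123 and 141 in Ovx, where libraries 43 and 44 stood above the rest (0.86, adjusted p = 0.356).

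The receptor gene Nr3c1 itself did not pass (difference -0.082 ± 0.071, adjusted p = 0.683), with values of 2376, 2475, 2593 and 2289 in Ctrl and 2654, 2172, 2181 and 2214 in Ovx. Of the list, 7 members were lower at the adjusted p without library 43 (297 of all genes), 7 without 39 (55) and 8 without both (366). The number was 1 without 38 (6 of all genes), 2 without 53 (6) and 0 without 37, 51, 44 or 45 (0). The median of the list stayed between -0.36 and -0.24 when 1 library was left out.

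Of 28 heat shock and chaperone genes, Dnaja1 fell, 7 including it were lower at an unadjusted p under 0.05 (6.15% of all genes), none was higher, and the median was -0.11. Hsp90aa1, the stress-induced heat shock protein gene, was at 3953, 3246, 3169.8 and 3721 in Ctrl and 3541, 2425, 2231 and 2422 in Ovx, where library 43 was level with Ctrl and the others were below it (-0.43 ± 0.12, adjusted p = 0.135). Hspa8, the constitutive chaperone of the same system, was at 52832, 44353, 40706 and 51350.1 and 40218, 38542, 44028 and 39116, with overlap (-0.22 ± 0.078, adjusted p = 0.241). Chordc1, a co-chaperone, was at 841, 704, 746 and 908 and 679, 584, 644 and 529.8 without overlap (-0.39 ± 0.10, adjusted p = 0.121). The near-identical genes Hspa1a and Hspa1b were both lower at an unadjusted p under 0.05, but share reads and cannot be counted as 2 results. Without Ctrl library 39 the count of lower members was 15 in place of 7, where 1033 of all genes were lower in place of 850. On the values as deposited the count was 18, where 2417 of all genes were lower.

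Of 28 antioxidant and NADPH oxidase genes, 8 were lower at an unadjusted p under 0.05 (6.15% of all genes), none higher, and none passed the adjusted p (median -0.067). On the values as deposited 15 were lower, where 2417 of all genes were lower in place of 850. Gclc and Gclm encode the 2 subunits of the enzyme that starts glutathione synthesis. Gclc was at 517, 471, 488 and 539 in Ctrl and 445, 385, 394 and 398 in Ovx (-0.31 ± 0.091), and Gclm at 489, 441, 527 and 492 and 433, 334, 369 and 421 (-0.33 ± 0.10), with adjusted p of 0.154 and 0.171. Neither gene had overlapping groups, but the gap between the lowest Ctrl and the highest Ovx library was small in both. Txn1, Txnrd1, Srxn1 and the regulator Nfe2l2 were among the 8, as were Mt1 and Mt2, which the glucocorticoid list holds too.

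Srebf1, which rose, belongs to a list of lipogenesis and cholesterol synthesis genes. Of its 27 members, 7 were higher at an unadjusted p under 0.05 (6.19% of all genes), none lower, and the median was 0.084. On the values as deposited 6 were higher (322 of all genes) and 2 lower (2417 of all genes), and the median was -3.18e-05. Sqle, the squalene epoxidase of cholesterol synthesis, was at 5.95, 9.97, 17.2 and 27.6 in Ctrl and 39.8, 33.2, 42.2 and 29.6 in Ovx, with every Ovx library above every Ctrl one (1.39 ± 0.35, adjusted p = 0.116). Fasn, the fatty acid synthase, was at 791, 835, 879 and 826 and 937, 971, 1062 and 985 (0.25 ± 0.066, adjusted p = 0.130). Both genes were without overlap. Scd4, a stearoyl-CoA desaturase, and Cyp51, a demethylase of sterol synthesis, were also among the 7.

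The list of fatty acid uptake and oxidation had no member past the adjusted p among 37 (median -0.022). At an unadjusted p under 0.05, 5 were higher (6.19% of all genes) and 2 lower (6.15%). Cpt1a, the carnitine transferase that admits fatty acids to mitochondria, was at 1654, 1814, 1799 and 1333 in Ctrl and 1960.1, 2242, 2009 and 2059 in Ovx, without overlap (0.33 ± 0.085, adjusted p = 0.116). Its regulators went the other way in value. Ppargc1a was at 3786, 2591, 2837 and 3378 and 2804, 2365, 2257 and 2262 (-0.37 ± 0.11, adjusted p = 0.149) and Ppara at 4018, 3078, 2844 and 3742 and 2711, 2492, 2796 and 2896 (-0.32 ± 0.10, adjusted p = 0.188), each with slight overlap. Of 42 nuclear genes of oxidative phosphorylation, 36 were below 0, but the median was -0.051. At an unadjusted p under 0.05, 3 were lower, a share near the 6.15% of all genes. Pfkfb2, which makes the allosteric activator of heart glycolysis, was at 3426, 3378, 3268 and 4162 and 3048, 2706, 2976 and 2453 (-0.35 ± 0.077, adjusted p = 0.0772).

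All 23 collagen genes tested were above 0 in Ovx against Ctrl, with a median of 0.32, but none passed the adjusted p. At an unadjusted p under 0.05, 15 were higher (6.19% of all genes) and none lower. Fibrillar collagens are laid down by fibroblasts and stiffen the ventricle, and collagen VI forms the microfibrils around cells. Of the fibrillar chains, Col1a1 was at 1664, 2295, 3292 and 2396 in Ctrl and 3024, 3033, 3404 and 3544 in Ovx (0.47 ± 0.15, adjusted p = 0.193). Col3a1 was at 2590.3, 3654, 5921 and 3633 and 5019.9, 5789, 5837 and 6649 (0.62 ± 0.18, adjusted p = 0.157). In both, Ctrl library 39 was as high as the Ovx libraries and Ctrl library 37 was far below all others.

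The collagen VI chains were without overlap: Col6a1 was at 2137, 2429.8, 2738 and 2604 in Ctrl and 2856, 3199, 3089.6 and 2988 in Ovx (0.30 ± 0.072, adjusted p = 0.100). Col6a2 was at 2144, 2348, 2788 and 2839 and 2991, 3172, 3309 and 3423 (0.36 ± 0.088, adjusted p = 0.107). The number of collagens higher at an unadjusted p under 0.05 was 9 of 23 without Ctrl library 37 (median 0.21), 16 without 39 and 16 without 39 and 43. Of all genes, 647, 1093 and 1102 were higher there. The adjusted p was passed by 7 collagens without 39 (59 of all genes were higher), by 2 without 43 (59) and by 8 without both (127). On the values as deposited 8 collagens were higher at an unadjusted p under 0.05 (322 of all genes), with a median of 0.24, and 0 passed the adjusted p.

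Of 44 other matrix proteins, 38 were above 0, with a median of 0.17, 14 were higher (6.19% of all genes) and 1, Ogn, was lower (6.15%) at an unadjusted p under 0.05. None passed the adjusted p. Of 36 enzymes and inhibitors that build and degrade the matrix, 21 were above 0 and 15 below, with a median of 0.029, 5 were higher and 4 lower at that p. Fn1, fibronectin, was at 1635, 2289, 2244 and 1879.7 in Ctrl and 2754, 2622, 2450.2 and 3566 in Ovx, without overlap (0.50 ± 0.13, adjusted p = 0.123). Fbn1, the fibrillin of elastic microfibrils, was at 1672, 2103, 2677 and 2082 and 3165, 2912, 2590.5 and 3119, with Ctrl library 39 above the lowest Ovx library (0.48 ± 0.12, adjusted p = 0.116). Ltbp2, a microfibril protein of the stressed heart, was at 92.6, 327, 223 and 239 and 352, 262, 275 and 394, with Ctrl library 38 among the Ovx libraries (0.65 ± 0.28, adjusted p = 0.326). Without Ctrl library 37 the count of members higher at an unadjusted p under 0.05 was 7 (647 of all genes). On the deposited scale it was 5 (322 of all genes).

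Of 15 markers of pericytes and smooth muscle, which surround the endothelium of vessels, 8 were higher at an unadjusted p under 0.05 (6.19% of all genes), none was lower, and none passed the adjusted p (median 0.18). Notch3, the Notch receptor of vascular smooth muscle, was at 1755, 1907, 2089 and 1972 in Ctrl and 2304, 2241, 2627 and 2579 in Ovx (0.34 ± 0.067, adjusted p = 0.0583). Myh11, the smooth muscle myosin heavy chain, was at 1185, 1699, 2165 and 1197 and 2287, 2415, 2051 and 2629, with overlap through Ctrl library 39 (0.63 ± 0.15, adjusted p = 0.0913). The pericyte genes Pdgfrb (2281, 2534, 2622 and 2387 in Ctrl and 2753, 2986, 3187 and 3021 in Ovx) and Cspg4 (680.1, 958, 1051 and 841 and 1091, 1286, 1165 and 1253) were both without overlap (adjusted p = 0.116 for each). The contractile genes Tagln and Cnn1 differed by 0.57 and 0.99 (adjusted p = 0.131 for each), values singled out after they were seen.

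The summed level of the 15 pericyte and smooth muscle markers was 91059.7 to 104599.7 in Ctrl and 100569 to 103904 in Ovx, so that the sum, which its most abundant members dominate, overlapped. Of 12 fibroblast markers, 10 were above 0 (median 0.13; 2 higher at an unadjusted p under 0.05), and their sums were 60399 to 74039 in Ctrl and 65958 to 72040.1 in Ovx. Of 15 endothelial markers 6 were above 0 and 9 below, with 2 higher and 1 lower at that p and a median of -0.065. Over all genes tested, 6.19% were higher and 6.15% lower at that p. The part of the number of these cells in the matrix result was not tested.

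**Figure D3:**
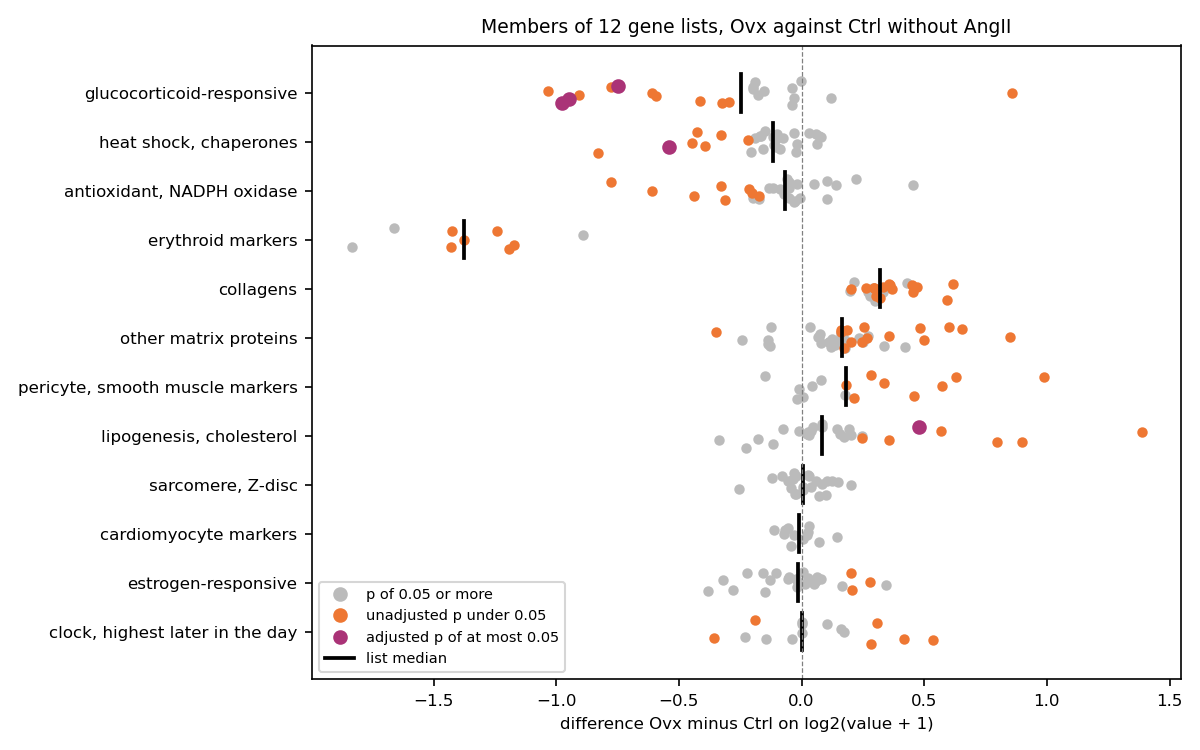
Each point is a member of 1 of 12 gene lists (y axis), at its difference Ovx minus Ctrl on log2(value + 1) (x axis), coloured by its p, with the list's median as a bar. Collagens all lie above 0 and erythroid markers all below it, sarcomere genes and cardiomyocyte markers are centred on 0, and the members past the adjusted p are 3 glucocorticoid-responsive genes, Dnaja1 and Srebf1.

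The receptors through which ovarian hormones act did not pass. Esr1 was at 25.5, 43.7, 39.1 and 49.6 in Ctrl and 39.0, 50.1, 35.6 and 54.1 in Ovx (0.19 ± 0.27, adjusted p = 0.819), a low level with wide overlap. Gper1 was at 46.8, 52.7, 50.6 and 50.1 and 42.2, 39.4, 62.1 and 57.4 (-0.018 ± 0.21, adjusted p = 0.984), where the Ovx libraries lay on both sides of the Ctrl ones. Esr2 and the progesterone receptor gene Pgr were under the limit of 10: Esr2 was listed at 0 in all but Ovx library 44 (1.07), and Pgr at 0 in the 4 Ctrl libraries and at 5.78, 1.07, 0 and 3.71 in Ovx. Of 25 estrogen-responsive genes, 3 were higher at an unadjusted p under 0.05 (6.19% of all genes), none lower, and the median was -0.017. They were Cxcl12, Igfbp4 and Igfbp5, with differences of 0.20, 0.20 and 0.28. Cxcl12, a chemokine, was at 7913, 8469, 7532 and 8914 in Ctrl and 9478, 9261, 9414 and 9519.8 in Ovx, without overlap.

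Among 16 steroid and related nuclear receptors the mineralocorticoid receptor gene Nr3c2, whose product binds aldosterone and corticosterone, was the one higher at an unadjusted p under 0.05. It was at 535, 703, 643 and 379 in Ctrl and 939, 789.8, 887 and 751 in Ovx, without overlap (0.61 ± 0.15, adjusted p = 0.107), and Ctrl library 51 was the lowest. Agtr1a, the main AngII receptor of mouse heart, was at 1064, 1216, 1228 and 1032 and 1439.7, 1391, 1549.7 and 1358, also without overlap (0.34 ± 0.10, adjusted p = 0.149). Of 14 genes of the renin-angiotensin system, 7 were above 0 and 7 below, with a median of 0.062. At an unadjusted p under 0.05, 2 were higher (6.19% of all genes) and 1 was lower (6.15%).

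Genes of cardiac stress were spread widely between libraries. Nppb, the B-type natriuretic peptide gene of stretched myocytes, was at 1859, 2020.5, 1549 and 3053 in Ctrl and 2413, 2983, 3121 and 4979.7 in Ovx, with Ctrl library 51 inside the Ovx range (0.66 ± 0.20, adjusted p = 0.171). Nppa, its atrial relative, was at 2208, 3664, 1579 and 2903 and 2521, 2078, 2548 and 4896 (0.20 ± 0.24, adjusted p = 0.775), the highest library being Ovx 53. Ankrd1, a stretch-induced repeat protein of the sarcomere, was at 16871, 37351, 19333 and 31477 and 33532, 27915, 32329.5 and 40005 (0.41 ± 0.19, adjusted p = 0.368), and Ctrl library 38 was the second highest of all 8. Synpo2l, an actin-binding Z-disc protein, was at 4416, 5215, 3785 and 4318 and 5598, 5196, 5758 and 5726, with Ctrl library 38 inside the Ovx range (0.34 ± 0.10, adjusted p = 0.145).

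Of the myosin heavy chains, the fetal and slow form Myh7 was at 13866, 18957, 8503 and 13189 in Ctrl and 20988, 16759, 38851 and 16857 in Ovx, where library 45 stood far above the other 7 (0.74 ± 0.45, adjusted p = 0.540). The adult form Myh6 was at 962122, 815583, 822126 and 785408 and 882491, 871951, 839479.8 and 838912, a difference of 0.024 ± 0.10 (adjusted p = 0.953). Skeletal actin, Acta1, ranged from 2690.1 to 16531 within Ctrl alone (-0.33 ± 0.39, adjusted p = 0.782). Among 23 sarcomere and Z-disc genes and 12 cardiomyocyte markers, 0 were past an unadjusted p of 0.05 (limma; 12.3% of all genes tested), with medians of 0.0074 and -0.011. On the values as deposited 2 sarcomere genes were lower at that p (median -0.076), as were 2417 of all genes.

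Of 29 channel and connexin genes, 8 were higher (6.19% of all genes) and 1 was lower (6.15%) at an unadjusted p under 0.05 (median 0.072). The lower one, Kcna5, which encodes the ultrarapid delayed rectifier potassium channel, had the smallest p of the list. It was at 622, 679, 755 and 693 in Ctrl and 573, 516, 497 and 501 in Ovx, without overlap (-0.40 ± 0.081, adjusted p = 0.0618). Kcna4, a transient outward channel gene, was at 14.4, 22.8, 13.5 and 3.23 and 26.4, 34.5, 33.4 and 38.9, again without overlap but with Ctrl library 51 far below the others (1.47 ± 0.44, adjusted p = 0.157).

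The clock genes, whose levels depend on the hour of collection, did not move in one direction. Clock genes with a peak near lights-on had a median of -0.15 (6 genes, 1 lower at an unadjusted p under 0.05), and those with a later peak a median of 0.0036 (15 genes, 4 higher and 2 lower). At that p, 6.19% of all genes were higher and 6.15% lower. Arntl, the core activator, was at 57.3, 78.8, 177 and 92.6 in Ctrl and 217, 128, 188 and 76.8 in Ovx, a wide spread in both groups (0.60 ± 0.32, adjusted p = 0.460). Its partners Clock and Npas2 differed by -0.16 ± 0.12 and 0.33 ± 0.23. Nr1d1, the REV-ERB repressor, was at 3819, 4783, 4108 and 3216 and 6082, 6276, 5776 and 4829.9, without overlap (0.54 ± 0.15, adjusted p = 0.137).

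Dbp, the D-box activator, was at 4445, 4362, 3489 and 3617 in Ctrl and 4455, 5059.6, 4619 and 5512 in Ovx (0.31 ± 0.13, adjusted p = 0.348). Its groups too did not overlap, by a margin of 4445 against 4455. The D-box repressor Nfil3 was at 264, 219, 230.03 and 284 and 177, 159.9, 181 and 171, all Ovx libraries below (-0.53 ± 0.15, adjusted p = 0.154). Per2, a clock repressor that glucocorticoids also induce, was at 1441, 1116, 778 and 1480.2 and 921, 844, 820.2 and 1076 (-0.36 ± 0.16, adjusted p = 0.376), with the Ctrl spread wider than that of Ovx. Bhlhe41, a further repressor, differed by 0.42 ± 0.11 (adjusted p = 0.116), Cry2 by 0.0022 ± 0.10 and Ciart by 0.10 ± 0.21. The signs of Cry2 and Ciart changed when single libraries were left out. The hour of collection of each library is not given in the sources used here.

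Transcripts of red blood cells had lower values in Ovx. All 9 erythroid markers tested were below 0 (median -1.38), and 6 were lower at an unadjusted p under 0.05 (6.15% of all genes). Hbb-b1, a beta globin, was at 25263, 10546, 37889 and 18972 in Ctrl and 10419, 8099, 8802 and 9394 in Ovx, where the Ovx libraries were close together and Ctrl library 38 barely above them (-1.19 ± 0.36, adjusted p = 0.168). Hba-a1, an alpha globin, was at 26838, 12002, 48629 and 22314 and 12599, 8826, 11179.7 and 10921, and Alas2, the heme synthesis enzyme of red cell precursors, at 604, 243, 1221 and 477 and 283, 201, 201 and 239. Globin genes are near-identical pairs, and Hbb-bt and Hbb-b2 had almost the same values in every library, so their counts are not separate results. The summed level of the list was 25482 to 97291 in Ctrl and 19220.5 to 25571 in Ovx. Without Ctrl library 39 the median was -0.91, and 5 of 7 members were lower at an unadjusted p under 0.05 (1033 of all genes).

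Of 9 granulocyte and mast cell markers, S100a9 and S100a8, the calprotectin subunits of neutrophils, were lower at an unadjusted p under 0.05 (6.15% of all genes). S100a9 was at 34.9, 50.1, 288 and 77.4 in Ctrl and 10.2, 16.9, 18.5 and 12.6 in Ovx, without overlap (-2.40 ± 0.50, adjusted p = 0.0664), Ctrl library 39 being far above the rest. S100a8 was at 28.5, 22.4, 158 and 59.9 and 17.3, 13.6, 10.9 and 11.5 also without overlap (-1.85 ± 0.63, adjusted p = 0.223). Ctrl library 39, which held the most globin and calprotectin transcripts, was also the Ctrl library with the least Fkbp5, Zbtb16 and Mt1, and the most Col3a1. The part of blood in the tissue in these results was not tested. Of 16 macrophage markers 11 were below 0, and 3 were lower at an unadjusted p under 0.05 (6.15% of all genes). Library 39 again had the highest sum (15986, against 9438 to 11481 in the other Ctrl libraries). The same library led in interferon-stimulated genes, which summed to 30219 there and to 11414 to 13204 in the other Ctrl libraries, and in antigen presentation genes (61575 against 25930.1 to 36338).

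**Figure D4:**
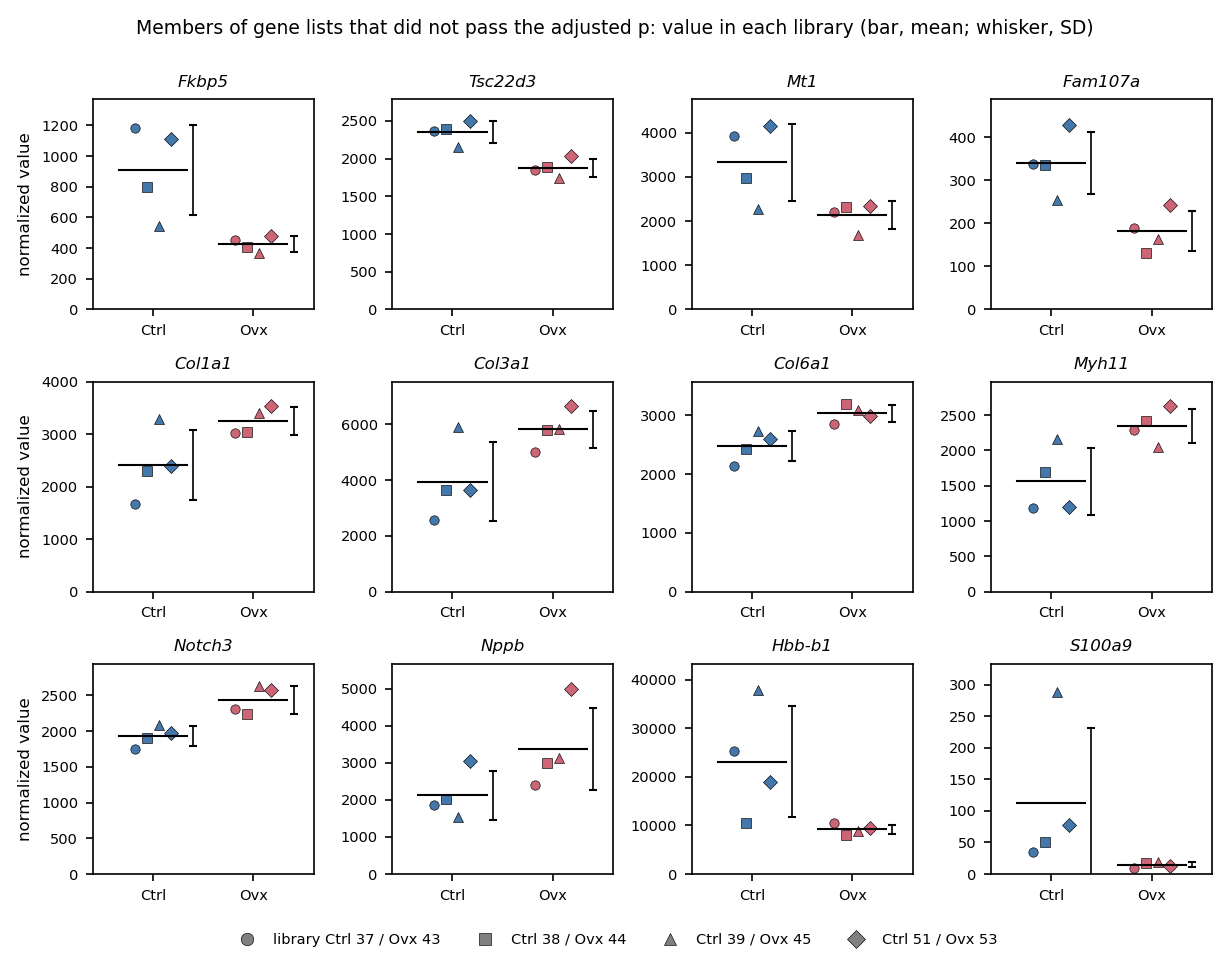
The normalized value (y axis, from 0) of 12 genes of the lists is plotted for each of the 4 Ctrl and 4 Ovx libraries, with the group mean as a bar and the SD as a whisker, whose lower end is off the axis for S100a9; none of the 12 passed the adjusted p. The Ctrl library drawn as a triangle (39) is lowest in the 4 glucocorticoid-responsive genes and highest in Col1a1, Col3a1, Col6a1, Myh11, Notch3, Hbb-b1 and S100a9 within its group.

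The next genes by the smallest p without overlap, 12 higher and 12 lower, had adjusted p between 0.0528 and 0.0748. Those higher included Apc2, a relative of the Wnt brake Apc, at 235, 257, 318 and 268 in Ctrl and 409, 429, 454 and 398 in Ovx (0.65 ± 0.13, adjusted p = 0.0583). Fzd1, a Wnt receptor, was at 209, 295, 292 and 282 and 423, 342, 386 and 393, with Ctrl library 37 far below (0.53 ± 0.11, adjusted p = 0.0695). Polr2a, the large subunit of RNA polymerase II, was at 2093, 2306, 2340.4 and 2068 and 2819, 2742, 2649 and 2714 (0.31 ± 0.068, adjusted p = 0.0748). Prom2, a membrane protrusion protein, was at 37.5, 58.6, 48.3 and 76.0 and 129, 101, 104 and 107, with a difference above 1 on the log2 scale (1.03 ± 0.22, adjusted p = 0.0746).

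Those lower included Mat2a, the enzyme that makes the methyl donor S-adenosylmethionine, at 5027, 4594, 4408 and 4847 in Ctrl and 3842, 3839.6, 3479 and 4081 in Ovx (-0.31 ± 0.060, adjusted p = 0.0528). Pdgfd, a ligand of the PDGF receptor beta, was at 563, 549, 612 and 612 and 474, 380.2, 380.3 and 470.4 (-0.46 ± 0.091, adjusted p = 0.0583), opposite in sign to its receptor gene Pdgfrb. Srsf1, a splicing factor, was at 2609.7, 2431, 2450.3 and 2471 and 2244, 2013, 1844 and 1959 (-0.31 ± 0.062, adjusted p = 0.0583). The endocytic adaptor Picalm, the cytoskeletal protein Frmd5 and the solute carrier Slc43a3 differed by -0.40, -0.56 and -0.35. Vegfa, the endothelial growth factor that cardiomyocytes secrete, was at 10877, 8249.96, 7958 and 10723 and 7896, 6733, 7331 and 6949.9, also without overlap but farther from the threshold (-0.37 ± 0.10, adjusted p = 0.135).

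The same genes were followed in females under AngII, with 8 libraries whose levels enter none of the differences above. In these libraries Ovx + AngII differed from Ctrl + AngII in 139 genes at the adjusted p (1.01%) and in 13 past both thresholds (0.0941%). Their spread, however, entered the p by which the genes were chosen, and the contrast under AngII used the same spread. The p of the chosen genes under AngII, risen or fallen, are therefore not independent of that choice. Their directions do not use the spread. Of the 8 genes that fell, 7 had the same direction under AngII. There 5 were lower at an unadjusted p under 0.05 (5.92% of all genes), a count that the shared spread keeps from being compared with that share. Cebpb fell by 0.68 (adjusted p = 0.00821), with 627, 489.9, 545 and 494 in Ctrl + AngII libraries 40, 41, 42 and 52 and 312, 349, 427 and 271 in Ovx + AngII libraries 46, 47, 48 and 54, again without overlap. Gpcpd1 fell by 0.52 (adjusted p = 0.0336), at 6741, 6019, 6432 and 5733 and 4179, 3729, 6031 and 3810.1, with Ovx + AngII library 48 inside the Ctrl + AngII range. Zbtb16, Map3k6 and Noct differed by -0.54, -0.52 and -0.37 under AngII without passing the adjusted p.

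Of the 7 genes that rose, 2 had the same direction under AngII, and only 2310022B05Rik passed there (0.38, adjusted p = 0.00121), while over all genes tested the signs were equal in 52.6%. The difference of the Ovx effect itself, with AngII minus without, passed the adjusted p in 8 genes (0.0579%), 1 of them past both thresholds (0.00724%). An unadjusted p under 0.05 was reached by 10.4% of all genes, by 6 of the 7 that rose and by 3 of the 8 that fell. This difference contains the Ovx minus Ctrl value by which the 15 genes were chosen, so their counts cannot be compared with that share. Of the 15, Sulf2 was among the 8 genes that passed (-0.44 ± 0.077, adjusted p = 0.0416, limma), and the same limit holds for it. Under AngII the values of Sulf2 were 3333, 3115, 3113 and 3478 in Ctrl and 3099, 3178, 3133 and 3116 in Ovx. Ctrl + AngII libraries were at the level of the Ovx libraries of both kinds, and the untreated Ctrl libraries alone were lower. For Srebf1 the difference of the effects was -0.49 ± 0.11 (adjusted p = 0.0954), and for Dnaja1 0.60 ± 0.13 (adjusted p = 0.0819).

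Among the lists, the glucocorticoid-responsive genes had medians of -0.25 without and -0.35 with AngII, where 13 members were lower and 2 higher at an unadjusted p under 0.05 (5.92% and 5.58% of all genes). Tsc22d3 fell by 0.59 under AngII (adjusted p = 5.97e-04). Erythroid markers had medians of -1.38 and -0.96. Collagens had 0.32 and 0.18, and pericyte and smooth muscle markers 0.18 and -0.032. The clock genes with a later peak had medians of 0.0036 and -0.71. Under AngII, 12 of these 15 were lower and 1 was higher at an unadjusted p under 0.05 (5.92% and 5.58% of all genes).

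In males, gonadectomy against control changed 11 genes at the adjusted p (0.0796%), 4 of them past both thresholds (0.029%) and none of them among the 15. Of these 15, 11 had the same direction in males, against 58.1% of all genes. At an unadjusted p under 0.05 in males were 3: Zbtb16 (-0.82), Map3k6 (-0.58) and Rabep2 (0.32). Of all genes, 4.2% were lower and 4.31% higher at that p. The male p also used the spread of the female libraries by which the 15 were chosen. The count of 3 thus cannot be compared with those shares. The male means of Zbtb16 were 3133 ± 2377 in controls and 1394 ± 315 after gonadectomy (SD, n = 4). Fkbp5 differed by -1.29 in males, from 828 ± 475 to 294 ± 36.9. The glucocorticoid-responsive list had a median of -0.25 in males, with 6 members lower at an unadjusted p under 0.05 (4.2% of all genes), and collagens one of 0.17, with 6 higher (4.31%). The adjusted p (limma) of the difference between the sexes ranged from 0.0691 (Srebf1) to 0.991 over the 15 genes, so that none passed. At an unadjusted p under 0.05 for it were 8 of the 15 and 6.07% of all genes. The difference between the sexes contains the female value by which the 15 were chosen, so their count cannot be compared with that share. The one gene of the series past both thresholds of this difference (0.00724%) was C7, a complement component (0.94 in females and -2.02 in males, adjusted p = 8.50e-04).

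**Figure D5:**
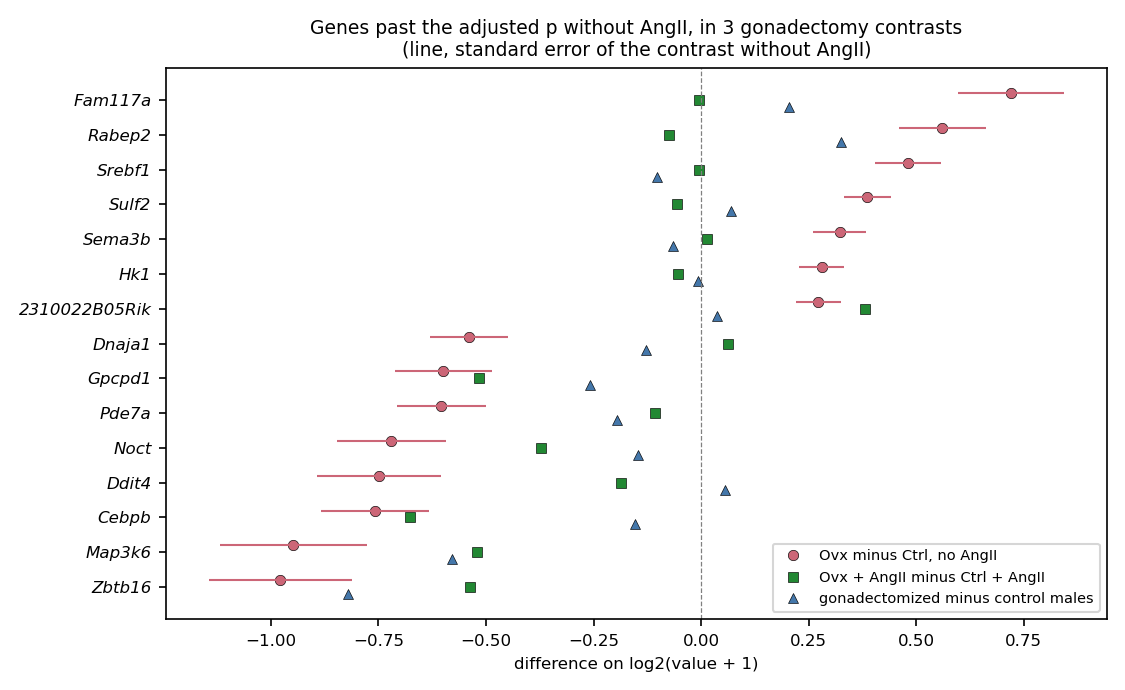
The difference on log2(value + 1) (x axis) of the 15 genes past the adjusted p without AngII is given for Ovx against Ctrl without AngII (circles, with the standard error as a line), Ovx + AngII against Ctrl + AngII (squares) and gonadectomized against control males (triangles). Genes that fell keep a negative value in most of the other contrasts, whereas 6 of the 7 that rose lie near 0 under AngII.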

How the data were processed

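RNA was sequenced from pools of 2 left ventricle free walls each, with a stranded mRNA library kit. Per the labels and the methods, the authors aligned reads to mm10 with STAR, quantified them with Salmon and normalized them with DESeq2, for which no versions are given in the sources used here. The deposited table holds a normalized signal for 24958 named genes in 24 libraries, with values that are not whole and no read totals. Another 14 rows whose gene names had become dates and 1 row without a name were left out, and 0 columns lacked a sample. The values of the 14 rows summed to 0.0552% of those of the named genes.

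Each library was divided by a median-of-ratios factor, because the deposited values kept a constant offset between groups. Genes with a mean of at least 10 over the 8 Ctrl and Ovx libraries were fitted on log2(value + 1) with limma 3.58.1 (R 4.3.3), with 1 mean per group over the 16 female libraries, moderated variance with a trend, and Benjamini-Hochberg adjustment over 13813 genes. Males were compared in the fit of all 24 libraries. A fold change on this scale understates that of genes with low values. A call needed both a log2 difference of 1 or more in size and an adjusted p not above 0.05. Single genes were also tested by exact permutation over 70 labelings of the 8 libraries. The script was tested on simulated data.

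The genes named were those past the adjusted p, the 12 non-overlapping genes in each direction with the smallest p and a mean of at least 50, up to 4 genes of smallest p and the one of highest value of each of 50 lists, and a set of hormone receptor, natriuretic, matrix and clock genes. Some genes that this rule names are not reported here. The members and the lists were chosen with earlier results of these data known. Alternatives were other pseudocounts, filters, scalings, sets of libraries in the fit, variance models, and leaving libraries out.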

Additional observations from a re-analysis of the deposited data

Results flagged for a closer look

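Single libraries stood far from the other 3 of their group in 10 of 190 groups of 4 examined over the 95 genes tabulated for the text, where chance alone flags about 1 in 20. Ovx library 43 was high in 3 genes: Pde7a (1048), Nr3c1 (2654) and Hsp90aa1 (3541). Ovx library 45 was high in Igfbp5 (7296), which encodes a binding protein of insulin-like growth factors, and in the clock gene Npas2 (91.3). Ovx library 53 was high in Nppa (4896) and in Nr4a3 (182), an immediate early nuclear receptor. In Ctrl, library 37 was high in Sema3b (1124) and low in Fzd1 (209), and library 39 was high in S100a9 (288).

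The effect of ovariectomy with AngII minus that without passed the adjusted p (limma) in 8 genes, all with a negative difference. They were Dbp (-1.19, adjusted p = 0.0175), the clock output gene Tef (-0.79, adjusted p = 0.0196), Ephx1, an epoxide hydrolase (-0.79, adjusted p = 0.0175), and Kcnh2, a delayed rectifier potassium channel (-0.60, adjusted p = 0.0135). The others were Tspan4, a tetraspanin (-0.77, adjusted p = 0.0135), Podn, a matrix proteoglycan (-0.72, adjusted p = 0.0451), Tcap, a sarcomere protein of the Z-disc (-0.86, adjusted p = 0.0451), and Sulf2 (-0.44, adjusted p = 0.0416). Ephx1, Kcnh2, Podn and Tspan4 are named because they passed this test, after their values were seen. Between the sexes, the effect of gonadectomy differed in C7, by 2.97 in females minus males (adjusted p = 8.50e-04).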

How the results depend on the processing

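All 15 genes past the adjusted p kept their direction under each of the 20 alternatives, but not their call. Because their groups did not overlap, only another scaling (the values as deposited or quantile normalization) could have changed a direction. The other alternatives add nothing on direction. They all passed without Ctrl library 39, without Ovx library 43, without both, with library quality weights, with quantile normalization, with a pseudocount of 0.5 or 10 and with a mean of at least 50. With a filter only on a mean above 0, 11 of them passed, on the values as deposited 12, and with all 24 libraries in the fit or without the variance trend 3. None passed in a fit of the 8 libraries alone or without libraries 51 and 53. The cause of these losses was not tested.

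Genes past both thresholds numbered 0, against 2 with a mean above 0, 6 on the values as deposited, 1 with quantile normalization, 9 with library weights and 23 without 39 and 43, and 0 to 10 with a single library left out. Genes past the adjusted p numbered 15, against 193 as deposited, 0 in the fit of 8, 3 in that of 24 and without the trend, 239 with weights, 0 without 51 and 53, 493 without 39 and 43, and 0 to 356 with a single library left out. Genes at an unadjusted p under 0.05 numbered 2739 as deposited and 1121 without 51 and 53, and 1294 to 2126 with a single library left out. The difference between AngII and none was called in 1 gene, against 33 as deposited, 0 with 24 libraries, without the trend and without 51 and 53, 7 with weights, 21 without 39 and 43, and 0 to 10 with a single library left out. That between the sexes was called in 1 gene, 7 as deposited, 2 with weights, and 1 to 2 with a single library left out.

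Differences near 0 changed sign. On the values as deposited these were Myh6 (-0.060), Cry2 (-0.081), Kcnh2 (-0.015) and Tef (-0.080), and with weights Nppa (-0.014). Without 51 and 53 they were Cry2 (-0.0077), Ciart (-0.051) and Tef (-0.039), and without 39 and 43 Gper1 (0.061), Myh6 (-0.0017) and Tef (-0.0017). With a single library left out the ranges were -0.13 to 0.089 for Gper1, -0.049 to 0.094 for Cry2, -0.057 to 0.39 for Nppa, -0.032 to 0.19 for Ciart, -0.064 to 0.065 for Tef, -0.010 to 0.087 for Myh6 and -0.84 to 0.031 for Acta1. No paired analysis was possible because the groups compared share no replicate number. The table holds no read totals per library, so that no counting error is given.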

Other observations

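Several further gene lists had most members on one side of 0, and 5 of them are described first. All counts of lower or higher members are at an unadjusted p under 0.05, at which 6.15% of all genes were lower and 6.19% higher. Of 35 cytosolic ribosomal protein genes, 34 were below 0, with a median difference of -0.078 and 4 lower (limma), and in males the median was 0.13 with 15 higher (4.31% of all genes). Of 23 proteasome and muscle ubiquitin ligase genes, 20 were below 0 (median -0.077, 3 lower). Of 9 adipocyte markers, 8 were below 0 (median -0.29, 3 lower). Of 26 cell division genes, 20 were below 0 (median -0.17, 2 lower, a share near that of all genes), and with AngII their median was 0.18. Of 15 Wnt ligands and antagonists, 12 were above 0 (median 0.24, 3 higher), and with AngII their median was -0.17 with 4 lower (5.92% of all genes). No member of these 5 lists passed the adjusted p. Of 28 genes of glucose uptake and glycolysis, 22 were below 0 (median -0.041). There 2 were lower, a share near that of all genes, and 1 was higher, Hk1, which passed the adjusted p.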
